A study of Arabidopsis thaliana with 6 samples.

Results

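The SAUR (small auxin up RNA) genes of Arabidopsis thaliana were examined in whole seedlings of the line 35S-PLT2-GR, whose total RNA was labelled with biotin and hybridised to 6 arrays. The genes were taken from a list of 60 SAUR loci. A locus counted as measured where the platform's probe table gave it a probe set of its own. None of the 60 was found when the table's gene IDs were joined to loci, the join first intended. For 5 loci, however, the table printed the locus code itself beside a gene ID that the RefSeq table does not hold, and these 5 were kept: AT4G34800 (SAUR4), AT3G53250 (SAUR57), AT1G19840 (SAUR53), AT1G43040 (SAUR58) and AT2G18010 (SAUR10). The other 55 loci were not analysed here. They may have probe sets among the 20904 for which the probe table gives no gene. Other places are the 758 probe sets with several genes, not searched by locus code, and single-gene ones that neither match reached. The 5 are among 16512 genes with a probe set of their own, each had 1 probe set, and nothing below stands for the family as a whole.

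All seedlings carried a fusion of PLT2 to the glucocorticoid receptor under the 35S promoter, which is active in most cells; PLT2 is a PLETHORA transcription factor with AP2 domains. At an age of 4 days about 50 seedlings per flask were placed in 50 ml of liquid medium overnight. They then received dexamethasone at 10 µM, which lets such a fusion enter the nucleus, or DMSO (mock), for 6 h. Each group held 3 arrays, labelled as biological replicates. No dexamethasone-treated seedlings without the fusion were used here, so what dexamethasone does by itself and what the fusion does cannot be told apart.

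SAUR genes encode small plant proteins, and many of them are among the earliest transcripts to rise after auxin. Auxin acts by removing Aux/IAA repressors from auxin response factors, which then activate SAUR, GH3 and Aux/IAA genes. Several SAUR proteins inhibit PP2C.D phosphatases, which otherwise switch off the proton pumps of the plasma membrane, and so favour wall acidification and cell elongation.

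Of the 5 measured SAUR genes, 3 fell in dexamethasone-treated seedlings and 0 rose. SAUR53, which is known to promote organ elongation, was 2.75-fold lower, SAUR57 was 2.16-fold lower and SAUR4 was 1.89-fold lower. The other two, SAUR58 and SAUR10, lay near the lower end of the array's range in both groups and did not pass the test. The calls come from limma on log2 values (two-sided, adjusted p at most 0.05 by Benjamini-Hochberg over 17504 probe sets). By the same rule 18.6% of all probe sets with a gene were called, 9.54% as falls and 9.04% as rises. The median log2 change was -0.92 over the 5 genes, which is the change of SAUR4 alone, and 0.02 over all probe sets with a gene. With 5 genes, these counts describe the genes and were not tested as a list. In whole seedlings, fewer cells of a type and less RNA per cell cannot be told apart.

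SAUR4 had log2 values of 5.66, 5.57 and 5.16 in the mock arrays and 4.60, 4.56 and 4.47 in the dexamethasone arrays. All dexamethasone values lay below all mock values, and the gap between the groups (0.55 on the log2 scale) exceeded the range within either group. The gap also exceeded both ranges for SAUR58, which did not pass, but not for SAUR57 or SAUR53, which did. The log2 change was -0.92 (SE 0.14, 95% interval -1.26 to -0.58, adjusted p 0.0067 by limma).

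SAUR57 had log2 values of 6.93, 6.84 and 6.75 in mock and 5.53, 5.50 and 6.14 in dexamethasone. The mock arrays were close together (SD 0.09, n = 3), while dexamethasone replicate 3 stood above the other two dexamethasone arrays (SD 0.36, n = 3) but still below every mock array. The log2 change was -1.11 (SE 0.18, 95% interval -1.54 to -0.69, adjusted p 0.0077 by limma). Without dexamethasone replicate 3 it was -1.32.

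SAUR53 had log2 values of 5.27, 4.47 and 3.999 in mock and 3.06, 2.92 and 3.39 in dexamethasone. The groups did not overlap, but the mock arrays spread widely (SD 0.64, n = 3, against 0.24 in dexamethasone). The log2 change was -1.46 (SE 0.31, 95% interval -2.18 to -0.73, adjusted p 0.0192 by limma). The dexamethasone mean of 3.12 is close to 3.05, the lowest first quartile of the 6 arrays, so the fold is approximate. The change ranged from -1.75 without mock replicate 3 to -1.11 without mock replicate 1. The call was lost without mock replicate 2 (adjusted p 0.0519), without dexamethasone replicate 1 (0.0586) and without dexamethasone replicate 2 (0.0623).

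**Figure D1:**
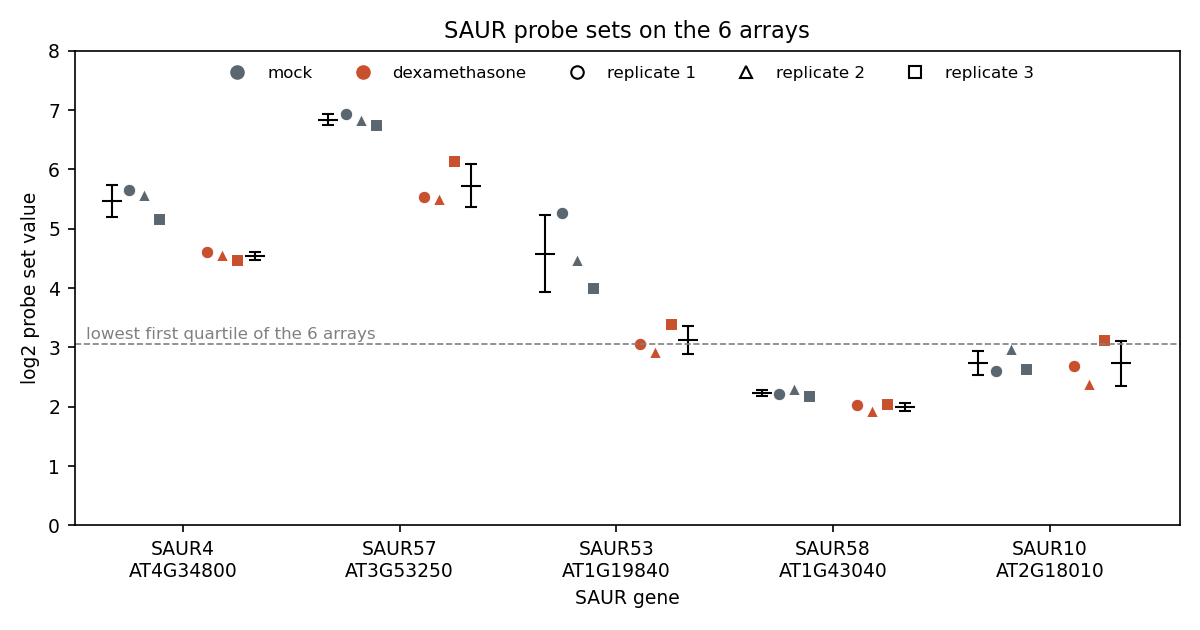
Log2 probe set value (vertical axis) of the 5 measured SAUR genes on each array, mock in grey and dexamethasone in orange, with 1 symbol shape per replicate number; black bars give the mean ± SD (n = 3), and the dashed line is the lowest first quartile of the 6 arrays (3.05). The groups are apart for SAUR4, SAUR57, SAUR53 and, below the line, SAUR58, and they overlap for SAUR10. Groups were apart for 38.1% of all probe sets with a gene. Values of different probe sets are not to be set against each other.

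SAUR58 had log2 values of 2.22, 2.29 and 2.18 in mock and 2.02, 1.93 and 2.05 in dexamethasone. The groups did not overlap, as was the case for 38.1% of all probe sets with a gene, and with dexamethasone lower for 18.8%. The log2 change of -0.23 (SE 0.09, 95% interval -0.44 to -0.03) had an adjusted p of 0.115 by limma. Both means, 2.23 and 2.00, lay below the lowest first quartile of the arrays, where a probe set may carry little specific signal.

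SAUR10, whose transcript is known to be induced by auxin and by brassinosteroid, had log2 values of 2.60, 2.98 and 2.63 in mock and 2.68, 2.37 and 3.13 in dexamethasone. The groups overlapped, with the highest and the lowest value both in dexamethasone. The log2 change was -0.01 with an adjusted p of 0.985 by limma, with a 95% interval of -0.49 to 0.47. Its means, 2.74 and 2.73, were also below the lowest first quartile, where a fall may be hidden.

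**Figure D2:**
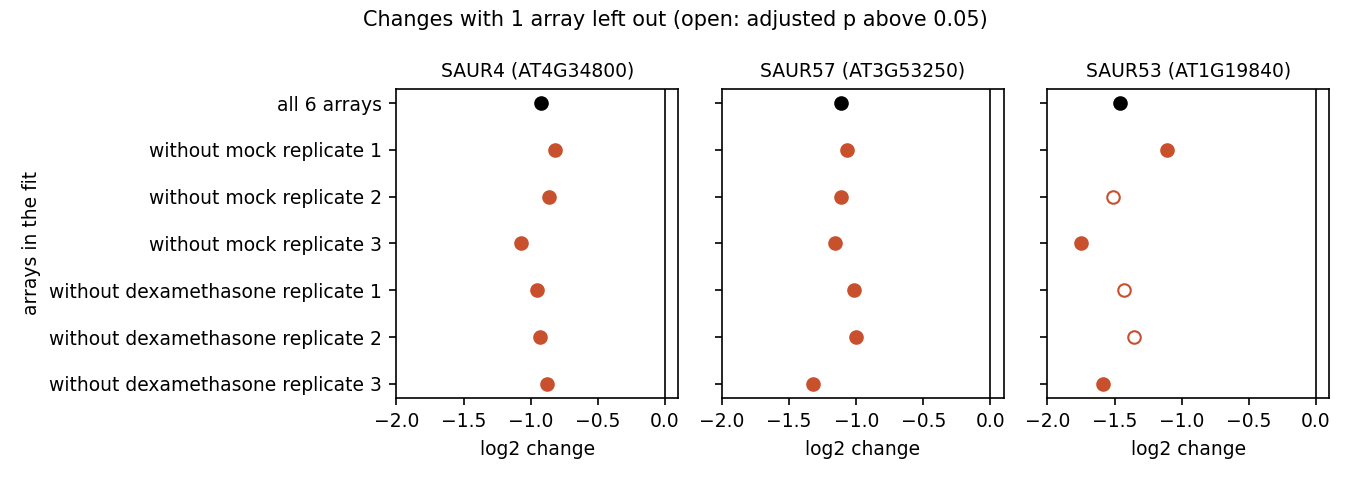
Log2 change, dexamethasone minus mock (horizontal axis), of the 3 SAUR genes that fell, with all 6 arrays (black) and with each array left out in turn (orange); open points have an adjusted p above 0.05. SAUR4 and SAUR57 keep filled points throughout, whereas SAUR53 has 3 open points, and no point reaches 0.

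Many SAUR genes lie in tandem clusters. Of the 60 listed loci, 27 fall into 7 runs in which consecutive locus codes are at most 30 apart. Only 2 of these 27 were measured, in different runs, so no 2 neighbouring SAUR genes can be compared. SAUR4, on chromosome 4, belongs to a run of 4 listed loci from AT4G34750 to AT4G34800. SAUR53, on chromosome 1, pairs with AT1G19830 (SAUR54). SAUR57 on chromosome 3, SAUR58 on chromosome 1 and SAUR10 on chromosome 2 stand alone in the list. Whether probes for one SAUR gene also hybridise with its close relatives was not tested, and values of these genes may include such signal. No coordinates are given, because no source used here names the genome build behind the probes.

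The nearest measured genes on either side of the 5 were taken by their order in the TAIR10.1 annotation. Of these 10 neighbours, 1 rose, 1 fell and 8 did not pass, a share of calls near the 18.6% over all probe sets with a gene. The neighbour that fell was AT1G19835, next to SAUR53 among measured genes, with a log2 change of -0.69 (SE 0.10) and an adjusted p of 0.0049 by limma. The neighbour that rose was AT3G53220, before SAUR57, with a log2 change of 0.66 (SE 0.13). The neighbours of SAUR4 had changes of 0.17 (AT4G34690) and 0.00 (AT4G34880) and did not pass. They do not adjoin SAUR4, since 15 unmeasured genes lie between it and AT4G34690, and 6 between it and AT4G34880. Of the 10 neighbours, only AT1G19835 directly adjoins its SAUR gene in the annotation. These neighbours were chosen by position after the SAUR values were known.

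Upstream of SAUR genes, the Aux/IAA repressors moved in both directions. Of 29 listed members 8 were measured, of which 2 rose and 3 fell, with a median log2 change of -0.33. Over all probe sets with a gene, 9.04% rose and 9.54% fell, with a median of 0.02. The list was not tested as a set. Several measured members (IAA20, IAA30, IAA31, IAA33 and IAA34) lack the full degron through which auxin acts on canonical Aux/IAA proteins, and they moved in both directions or did not pass. IAA33 had log2 values of 3.12, 3.73 and 2.74 in mock and 5.08, 5.13 and 5.08 in dexamethasone. This is a rise of 3.73-fold (log2 change 1.90, SE 0.23, adjusted p 0.00266 by limma), from mock values near the first quartile of the arrays. IAA30 had values of 5.80, 5.54 and 5.44 in mock and 8.07, 8.20 and 7.91 in dexamethasone. Its rise was the larger, 5.53-fold (log2 change 2.47, SE 0.13, adjusted p 0.000106 by limma). Among the falls, IAA29 had a log2 change of -0.77 (SE 0.13). The other falls were IAA34 (-0.87, adjusted p 0.0282) and IAA18 (-0.47, adjusted p 0.0227), both named after their values were seen. The call for IAA34 was lost without any 1 of the mock replicates and without dexamethasone replicate 1 or 2, with adjusted p of 0.0587 to 0.0901, and over all probe sets, named or not (0.055). The call for IAA18 was lost without mock replicate 1 (0.0838) or 3 (0.0663) and without dexamethasone replicate 1 (0.0649) or 2 (0.0694). IAA20 did not pass (log2 change -0.47, adjusted p 0.135), but its adjusted p was 0.0333 without dexamethasone replicate 2. None of the 6 listed auxin receptors and none of the 15 listed auxin response factors was analysed here.

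The GH3 genes encode enzymes that conjugate auxin to amino acids and, like many SAUR genes, several of them respond early to auxin. Of 7 listed members 5 were measured, of which 1 rose and 2 fell, with a median log2 change of -0.11. The shares over all probe sets with a gene were 9.04% for rises and 9.54% for falls, and this list was not tested as a set either. GH3.17 had log2 values of 7.42, 7.17 and 7.20 in mock and 6.56, 6.83 and 6.61 in dexamethasone. It was 1.51-fold lower (log2 change -0.60, SE 0.12, adjusted p 0.0147 by limma), and 0.0535 was its adjusted p without mock replicate 1. GH3.5 was 1.64-fold lower, a call lost without mock replicate 1 (adjusted p 0.0619) or 3 (0.0502). GH3.3 was 1.47-fold higher, a call lost in 5 of the 6 fits with 1 array left out (adjusted p 0.0521 to 0.0949), the exception being the fit without dexamethasone replicate 2. It was also lost over all probe sets, named or not (0.0593).

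Downstream, 4 of 9 listed PP2C.D phosphatase genes were measured and none passed the limma test, against 18.6% of all probe sets with a gene. None had an unadjusted p under 0.05 either. PP2C.D2 (AT3G17090) had the smallest p, with log2 values of 8.37, 8.35 and 8.55 in mock and 8.28, 8.32 and 8.18 in dexamethasone. Its change was -0.17 (95% interval -0.40 to 0.06, adjusted p 0.295). PP2C.D4 had a change of -0.22 with a 95% interval of -0.54 to 0.09. The 11 listed plasma membrane proton pump genes were not analysed here.

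**Figure D3:**
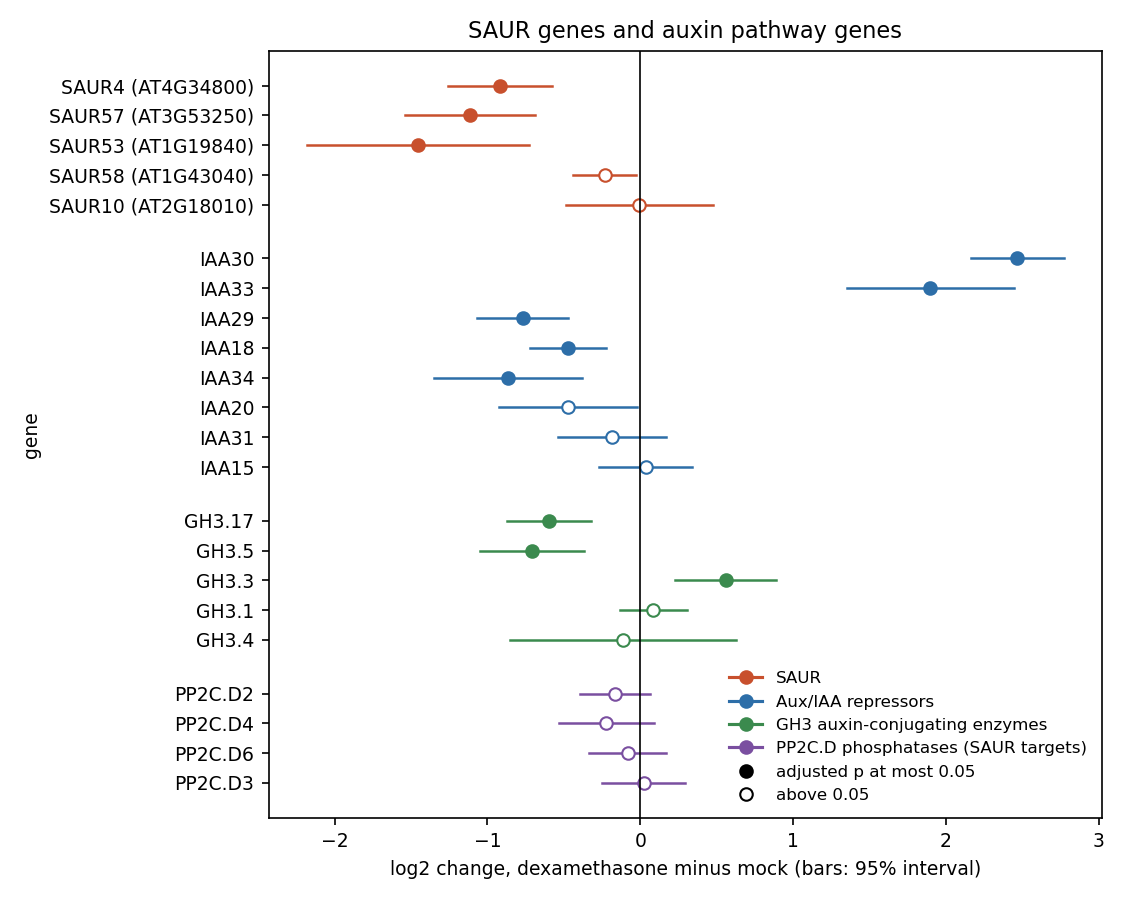
Log2 change, dexamethasone minus mock (horizontal axis), with its 95% interval for the 5 SAUR genes and the 17 measured genes of the auxin pathway lists; filled points have an adjusted p of at most 0.05. The 3 filled SAUR points lie left of 0, Aux/IAA and GH3 genes have filled points on both sides, and the PP2C.D points are open and near 0.

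Both shoot and root transcripts were present, as the label whole seedlings says. The leaf genes RCA and LHCB4.1 (2 of 6 listed were measured) had a mean log2 value per array of 10.65 to 10.67 in mock and 10.34 to 10.47 in dexamethasone. Of the root list 3 of 7 were measured, with a mean of 8.06 to 8.23 in mock and 7.07 to 7.49 in dexamethasone, and with no measured marker of either list near the lower end of the range. The logarithm of the summed linear values was 11.73 to 11.77 in mock and 11.40 to 11.53 in dexamethasone for leaf, and 11.94 to 12.09 and 11.91 to 12.02 for root. The root hair expansin genes EXPA7 (log2 change -1.23) and EXPA18 (-1.34) fell in the same comparison as SAUR4, SAUR57 and SAUR53. RCA had a log2 change of -0.32, just past the threshold (adjusted p 0.0475 by limma). LHCB4.1 had one of -0.23 and did not pass (adjusted p 0.12 by limma). For the root gene PYK10 the log2 change was -0.05. The part of these shifts in the SAUR values was not tested.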

How the data were processed

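The deposited values are log2 values, 1 per array and probe set, for 38408 probe sets on 6 arrays; array medians ran from 5.43 to 5.48. Per the submitters' processing notes, the tools were RMA and limma 3.24.15, with no role stated for either. For the build and the level of summarisation, no statement was found (not given in the sources used here). For arrays, their number limits the precision.

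The probe table pairs 17504 probe sets with a gene, 16746 of them with 1 gene. Gene IDs matched the RefSeq table (TAIR10.1) for 16601, and 96 of the other 145 kept the locus code printed in the probe table. The 5 SAUR genes are among these 96. SAUR names come from the RefSeq synonyms. No sequences are printed.

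The contrast of dexamethasone minus mock was fitted with lmFit and eBayes (limma 3.58.1, R 4.3.3) over the 17504 probe sets, and the code was tested on simulated data. SD is over 3 arrays and SE is moderated. Folds are antilogs of the log2 differences. Near the lower end means that both group means are below the lowest first quartile of the 6 arrays. Any SAUR gene could be named. Each pathway list could give up to 3 called members, in order of p, or else the one with the smallest p. Values of IAA34, IAA18, IAA20 and PP2C.D4 were given beyond this rule, after they had been seen. Members and lists were chosen with earlier results of these data known.

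Same-numbered arrays had correlations of deviations from the group means of -0.00987, -0.0163 and 0.0305, so the numbers were not taken to pair the arrays. Alternatives were the replicate block, quantile normalization, median centring, a dim filter, eBayes with a trend or robust, array weights, all probe sets, 1 probe set per gene, each array left out in turn, and an adjusted p of 0.01.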

Additional observations from a re-analysis of the deposited data

How the results depend on the processing

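In all 16 alternatives 0 SAUR genes rose, and 2 to 3 fell. Leaving out each array in turn gave 2 to 3 falls and a median log2 change of -1.07 to -0.82. SAUR4 and SAUR57 stayed past the threshold in all 16. SAUR53 did not in 3 of the fits with 1 array left out, nor at an adjusted p of 0.01. Since mock and dexamethasone values of these 3 do not overlap, no fit with fewer arrays could turn their direction. With the replicate block SAUR4, SAUR57 and SAUR53 had adjusted p of 0.0147, 0.025 and 0.04, and no SAUR call changed. Leaving out the dimmest 30% of probe sets removed SAUR58 and SAUR10 and gave a median of -1.11, the change of SAUR57 among the 3 genes left. SAUR10 had no called direction, with changes of -0.21 to 0.17 with 1 array left out. SAUR58 came closest to the threshold with quantile normalization (adjusted p 0.0505). In the pathway lists 5 genes fell, 1 at an adjusted p of 0.01, and 1 to 5 with 1 array left out, with 1 when mock replicate 1, 2 when mock replicate 3 and 3 when dexamethasone replicate 1 was left out. GH3.3 (0.0537) and GH3.5 (0.051) were lost with the block, and GH3.3 (0.0593) and IAA34 (0.055) over all probe sets. Fits with an array left out have fewer samples; for the other lost calls the cause was not tested. No measure of background was used, which limits the dim genes.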
